A study of Homo sapiens with 2 samples.

Results

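The 36 genes described here encode collagens, matrix glycoproteins, proteases, protease inhibitors and collagen-modifying enzymes, with CDH2, TAGLN and ACTA2 as mesenchymal genes. They were chosen by symbol and found through the gene identifiers of 2 deposited tables that together list 19052 genes. Of the 36, 34 had a row in at least 1 table, and COL1A2 and POSTN had none and count as 0. The choice of genes used no measured value, but it was made with earlier results of these data known.

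The extracellular matrix is the protein mesh that cells secrete around themselves. Collagens give it tensile strength, glycoproteins such as fibronectin and the thrombospondins connect it to cell surface receptors, hydroxylases and lysyl oxidases make the collagen chains stable and crosslinked, and metalloproteinases and the urokinase system cut it under the control of tissue inhibitors. Carcinoma cells secrete basement membrane components of their own and are known to depend on such proteases for invasion, while most fibrillar collagen of a tumour comes from its fibroblasts.

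Total RNA was sequenced from siCINP cells and siCtrl cells, both of the human bladder carcinoma line TSU-Pr1, which the labels also call K12 and which the series title describes as stably expressing KLF5, an epithelial zinc-finger transcription factor. siCINP cells were transfected with siRNA against CINP, whose product interacts with the cell cycle kinase CDK2, and siCtrl cells with a control siRNA. Both groups are of this KLF5 line, were grown with 8% serum and gave RNA at 48 h, with 1 library per group. Whether the KLF5 line is a single clone, and which siRNA sequences were used, was not given in the sources used here.

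Depth was 10314147 reads (siCINP) and 10365249 reads (siCtrl). CINP had 53 reads in the siCINP library, against 203 reads in the siCtrl library, a log2 ratio of -2.01 (95% interval -2.47 to -1.56). Keratins 8 and 18, the simple epithelial keratins, stood above 1500 FPKM in both libraries, whereas the uroplakins UPK1A, UPK1B and UPK3A had at most 19 reads and UPK2 no row, so these cells express keratins of an epithelium but hardly any defining urothelial genes. Of the 6 epithelial markers compared, KRT7, KRT18, KRT19 and CDH1 had intervals above 0 and KRT8 and PPARG intervals that held 0. Over all compared genes, 18.6% of intervals lay above 0. The log2 ratio of KRT18 was only 0.06, with 29477 reads in siCINP and 27036 in siCtrl. All of these markers but PPARG had fractional counts. Under 20 reads, EPCAM and TP63 had more reads in siCINP, and GATA3, UPK1A, UPK1B and UPK3A had fewer. KRT19 had 44 reads in siCINP and 20 in siCtrl, and the part of these marker differences in the matrix results was not tested. The summed FPKM of 13 urothelial and epithelial markers was 3591 in siCINP and 3339 in siCtrl. The 8 fibroblast markers summed to 3.10 FPKM in siCINP and 2.71 in siCtrl, nearly all of it COL1A1, with DCN, PDGFRA and THY1 without a row. Smooth muscle, endothelial and leukocyte markers summed to at most 1.66 FPKM each in either library.

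A log2 ratio below is siCINP over siCtrl after TMM scaling of rounded expected counts. Its 95% interval (exact, Clopper-Pearson) is that of the share of a gene's reads found in each library. The interval compares these 2 libraries and covers counting error only, since 1 library per group leaves every difference without a replicate check and without a p-value. At 100 reads in each library the interval reached 0.41 on either side of the ratio, and at 1000 reads 0.13. A gene was compared if either library held 20 reads or more of it, which left 25 of the 36, and a gene was called past 2-fold where its log2 ratio was at least 1 in size and its interval excluded 0. In bulk RNA, fewer cells expressing a gene and less of its RNA per cell cannot be told apart.

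TIMP2 was the 1 matrix gene past 2-fold, and it was lower in siCINP. Among the 25 compared matrix genes the 2-fold rule called 1 lower and 0 higher, and among all 13076 compared genes it called 1.41% lower and 1.69% higher. Intervals lay below 0 for 11 of the 25, against 23.1% of all compared genes, and above 0 for 1 of the 25, against 18.6%. Intervals narrow with depth, so the background depends on it: among genes with 100 or more reads, 11 of 21 matrix genes and 28.0% of 10138 genes lay below 0, and among genes with 1000 or more reads, 9 of 13 matrix genes and 43.3% of 2806 genes. The median log2 ratio of the 25 was -0.20, with values between -1.10 and 0.46, beside a median of -0.01 and quartiles of -0.21 and 0.20 over all compared genes. That background median and its quartiles were not matched to the matrix genes for depth. Scaling to total counts left 11 intervals below 0 and moved the background to 16.7% below and 26.6% above. The 2-fold calls over all genes, 221 higher and 184 lower, became 296 higher and 149 lower with that scaling.

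**Figure D1:**
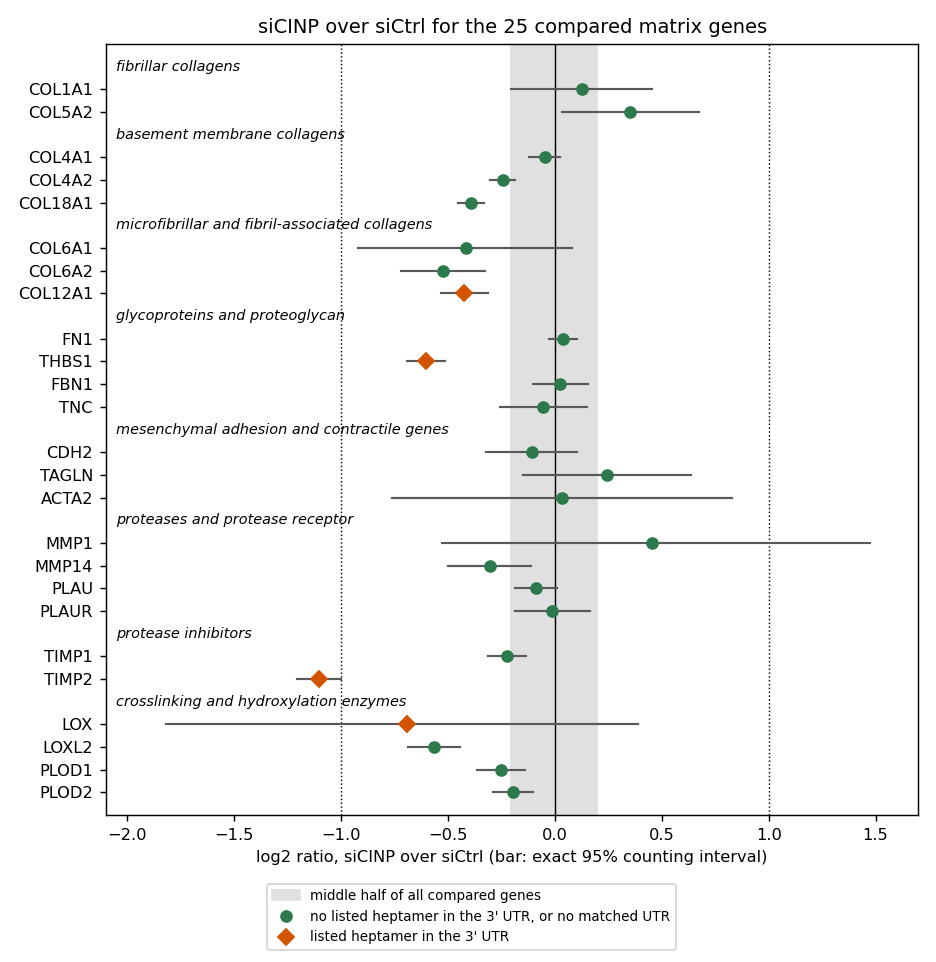
Log2 ratio of siCINP over siCtrl (x axis) for the 25 compared matrix genes, grouped by role, with exact 95% counting intervals as bars, the interquartile range of all compared genes as a grey band and dotted lines at 2-fold. TIMP2 is the single gene left of the lower 2-fold line, and the genes drawn as diamonds, COL12A1, THBS1, TIMP2 and LOX, hold TGCAAGA in a matched 3' UTR.

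TIMP2 and 3 further matrix genes hold the heptamer TGCAAGA, and THBS1 also the overlapping GCAAGAA, in the 3' UTR of a transcript that GENCODE 29 pairs with a RefSeq transcript named in the files. The sites are shown because across the whole table intervals lay below 0 in 768 of 1963 genes that carry either heptamer and in 2070 of 9486 other genes. The heptamers were singled out earlier on these same libraries, so such counts are not independent evidence. Capitals mark the heptamers, lower case the 10 bases on either side, all on the strand of the gene, 5′ to 3′, from GENCODE 29 transcripts of build GRCh38.
TIMP2: tgagggtcgtTGCAAGActgtgtagca
THBS1: gcaaatctctTGCAAGAAcagcacaagg
COL12A1: ggaaaacattTGCAAGActatgaacat
LOX: atactatgatTGCAAGAttatataaaa

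The TIMP2 site lies at chr17:78855253-78855279 on the minus strand, with its heptamer starting at base 398 after the stop codon in a 3' UTR of 2690 bases. The THBS1 site lies at chr15:39596591-39596618 on the plus strand, from base 1232 of a 3' UTR of 4097 bases. The COL12A1 site lies at chr6:75084434-75084460 on the minus strand, from base 2097 of 2221. The LOX site lies at chr5:122063223-122063249 on the minus strand, from base 3504 of 3548. TGCAAGA or GCAAGAA was present in 4 of 24 compared matrix genes with a matched 3' UTR (16.7%), and in 1963 of 11449 compared genes (17.1%). COL1A1 had no matched transcript.

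The 4 carriers had log2 ratios between -1.10 and -0.42, with a median of -0.65, and 3 of the 4 intervals lay below 0. The other 20 matched genes had a median of -0.10, and 8 of their intervals lay below 0 and 1 above. Over all compared genes, the median was -0.12 for carriers and 0.00 for the rest. Carriers had longer 3' UTRs, with a median of 3119 bases among the matrix genes and 3142 over all genes, against 975 and 1050.5 bases in genes without a heptamer. Genes of similar 3' UTR length were those where the longer 3' UTR, theirs or the carrier's, exceeded the shorter by at most 25%. Among them, 24.6% held a heptamer for TIMP2, 39.3% for THBS1, 19.6% for COL12A1 and 33.9% for LOX. The part of these heptamers in the ratios was not tested.

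Tissue inhibitors of metalloproteinases bind the active site of matrix metalloproteinases. TIMP2 (gene 7077, chromosome 17), which also joins MMP14 at the cell surface in the activation of MMP2, had 1140 reads in siCINP, against 2336 reads in siCtrl. Its FPKM was 29.9 in siCINP and 61.0 in siCtrl. The level was 2.15-fold lower in siCINP (log2 ratio -1.10, interval -1.21 to -1.0003). With other scalings the interval was not wholly past 2-fold, with upper ends at -0.93 (total counts), -0.96 (upper quartile) and -0.98 (DESeq2). TIMP1 (gene 7076), the secreted inhibitor most abundant here, had 1932 reads in siCINP and 2153 in siCtrl, a log2 ratio of -0.22 (-0.31 to -0.14). At 206 FPKM in siCINP and 228 FPKM in siCtrl it was the highest of all 36 genes in both libraries. The drop of TIMP2 exceeded that of TIMP1, with a difference of their log2 ratios of -0.88 (Woolf's 95% interval -1.01 to -0.74), so TIMP2 stood at 0.145 of the TIMP1 FPKM in siCINP and at 0.267 in siCtrl. TIMP3, an inhibitor bound to the matrix, had 13 reads in siCINP and 8 in siCtrl and was not compared.

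Of the 4 proteases and receptors compared, MMP14 was lower in siCINP, by less than 2-fold. MMP14, a membrane-anchored collagenase, had 403 reads in siCINP and 475 in siCtrl, a log2 ratio of -0.31 (-0.50 to -0.11), with 10.8 FPKM in siCINP and 12.6 in siCtrl. The FPKM of TIMP2 was 2.78 times that of MMP14 in siCINP and 4.84 times in siCtrl, and the difference between their log2 ratios was -0.80 (-1.01 to -0.58). The difference for TIMP1 and MMP14 gave 0.08 (-0.13 to 0.29), which does not show that they moved alike. PLAU, the urokinase that converts plasminogen to plasmin, had 1655 reads in siCINP and 1680 in siCtrl, a log2 ratio of -0.09 (-0.19 to 0.01). Its receptor PLAUR had 545 reads in siCINP and 524 in siCtrl, a log2 ratio of -0.01 (-0.19 to 0.16), and fractional counts in the files. No difference in either was detectable at this depth.

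The 3 secreted metalloproteinases were close to absent. MMP1, the interstitial collagenase, had 23 reads in siCINP and 16 in siCtrl (log2 ratio 0.46, -0.53 to 1.47). MMP3, stromelysin-1, had 14 reads in siCINP and 11 in siCtrl, and MMP2, the gelatinase activated through MMP14 and TIMP2, had 9 reads in siCINP and 2 in siCtrl. All 3 had 1.07 FPKM or less in both libraries, below MMP14, PLAUR and PLAU. Over all 6 genes of this role the reads summed to 2649 in siCINP and 2708 in siCtrl, a log2 ratio of -0.10 (-0.18 to -0.02), which came to -0.02 with total-count scaling.

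The collagens of the basement membrane made up most of the collagen RNA. Type IV collagen is the network-forming collagen of basement membranes, and its common form is a trimer of COL4A1 and COL4A2 chains. COL4A2 had 4567 reads in siCINP, against 5161 in siCtrl, a log2 ratio of -0.24 (-0.30 to -0.19). COL4A1 had 3088 reads in siCINP and 3043 in siCtrl, a log2 ratio of -0.05 (-0.12 to 0.03) that changed sign with total-count scaling. COL18A1, a heparan sulfate proteoglycan core that yields endostatin, had 3877 reads in siCINP, against 4848 in siCtrl, a log2 ratio of -0.39 (-0.45 to -0.33). These 3 genes stood between 45.4 and 70.0 FPKM in siCINP and between 44.4 and 85.1 FPKM in siCtrl, and together held 184 FPKM in siCINP and 208 FPKM in siCtrl.

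COL4A1 and COL4A2 lie head to head on chromosome 13 and are transcribed in opposite directions from a shared promoter, yet their ratios differed. The difference, COL4A2 minus COL4A1, was -0.20 on the log2 scale (-0.29 to -0.11), and it does not depend on scaling. The FPKM of COL4A2 was 1.54 times that of COL4A1 in siCINP and 1.77 times in siCtrl. The stretch between both RefSeq starts, chr13:110307158-110307283 of GRCh38.p14 on the plus strand, is printed because both genes use it. Capitals mark CCAAT and GGGCGG, each searched on both strands.
COL4A1-COL4A2: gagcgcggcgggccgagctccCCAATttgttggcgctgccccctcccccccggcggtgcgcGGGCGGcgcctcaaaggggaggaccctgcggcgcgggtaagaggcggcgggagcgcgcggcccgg

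The stretch has 126 bases and a GC content of 80.2%, where the median over the 126 bases before the start of 27305 RefSeq genes was 59.5%. CCAAT or its reverse complement was present in 21.9% of those windows and GGGCGG or its reverse complement in 34.6%. Neither heptamer described above lay in the matched 3' UTR of COL4A1 (1400 bases) or COL4A2 (1018 bases). The longest annotated 3' UTR of COL4A2, 4603 bases in another transcript, did hold one.

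Of the 3 compared genes of type VI and type XII collagen, COL6A2 and COL12A1 were lower in siCINP, by less than 2-fold, and the interval of COL6A1 held 0. Type VI collagen forms beaded microfilaments from COL6A1, COL6A2 and COL6A3 chains. COL6A2 had 371 reads in siCINP, against 508 in siCtrl, a log2 ratio of -0.52 (-0.72 to -0.33). COL6A1, its neighbour on chromosome 21, had 62 reads in siCINP and 79 in siCtrl, a log2 ratio of -0.42 whose interval of -0.92 to 0.08 held 0. COL6A3 had 3 reads in siCINP and 2 in siCtrl. The FPKM of COL6A2 was 7.54 times that of COL6A1 in siCINP and 8.09 times in siCtrl. The difference between their log2 ratios was -0.10 (-0.62 to 0.41), so the 2 chains were not distinguishable in their ratios. COL18A1 is on chromosome 21 as well, where the 130 compared genes had a median of 0.00 with 22 intervals below 0 and 22 above. COL12A1, a fibril-associated collagen, had 1236 reads in siCINP, against 1581 in siCtrl, a log2 ratio of -0.42 (-0.53 to -0.31). Its deposited length, an average over isoforms, was 1.75% longer in siCINP.

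Fibrillar collagens were scarce in both libraries, and COL5A2 was the 1 of them whose interval lay above 0. COL5A2, a chain of the type V collagen that helps start fibrils, had 194 reads in siCINP, against 145 in siCtrl, a log2 ratio of 0.35 (0.03 to 0.67), the 1 interval above 0 among the compared matrix genes. COL1A1, a chain of type I collagen, had 168 reads in siCINP and 147 in siCtrl (0.12, -0.20 to 0.45), at 2.72 FPKM in siCINP and 2.37 in siCtrl. Its partner chain COL1A2 had no row in either table. COL5A2 and COL1A1 were not distinguishable from each other, with a difference of their log2 ratios of 0.23 (-0.22 to 0.67). COL3A1 had 14 reads in siCINP and 11 in siCtrl, and COL5A1, the partner of COL5A2, had 4 reads in siCINP and none in siCtrl. The 5 genes summed to 380 reads in siCINP and 303 in siCtrl, a log2 ratio of 0.26 (0.04 to 0.48), and to 0.740% of the FPKM of all 36 genes in siCINP and 0.520% in siCtrl.

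**Figure D2:**
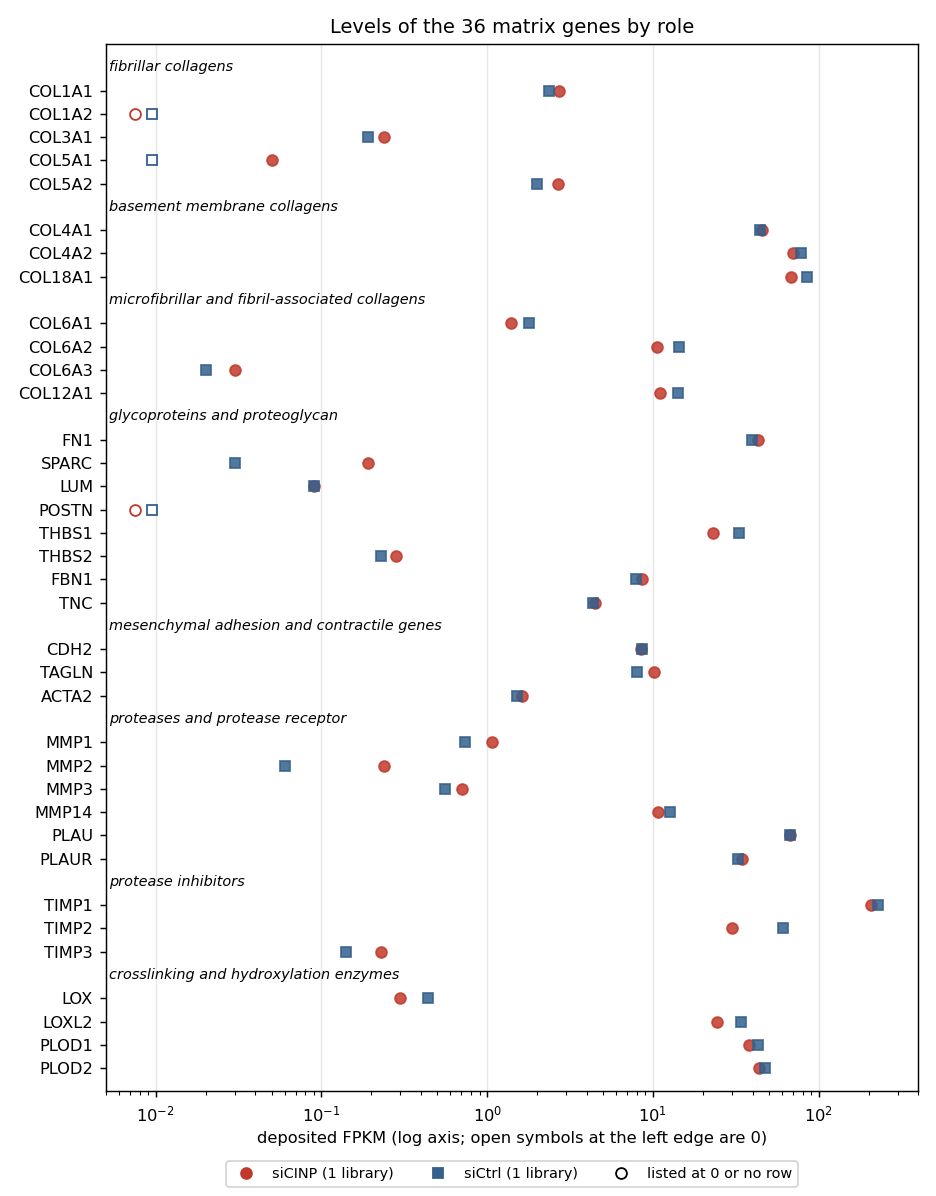
Deposited FPKM (log axis) of each of the 36 matrix genes in the siCINP library (circles) and the siCtrl library (squares), grouped by role, with open symbols at the left edge for genes listed at 0 or without a row. TIMP1 is at the top with 206 FPKM in siCINP and 228 in siCtrl, the basement membrane collagens lie between 44.4 and 85.1 FPKM, and the 5 fibrillar collagens lie at 2.72 FPKM or below.

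Among matrix glycoproteins, THBS1 was lower in siCINP and the other compared genes were not distinguishable between the libraries. THBS1 encodes thrombospondin-1, an adhesive glycoprotein that inhibits angiogenesis and activates latent TGF-beta. It had 1741 reads in siCINP, against 2521 in siCtrl, a 1.52-fold lower level (log2 ratio -0.60, -0.69 to -0.51). FN1, fibronectin, had 3852 reads in siCINP and 3580 in siCtrl, a log2 ratio of 0.04 (-0.03 to 0.10), with 43.0 FPKM in siCINP and 39.7 in siCtrl. Its interval lay above 0 with total-count scaling (0.11, 0.05 to 0.18) and with upper quartile scaling (0.08, 0.01 to 0.14). The difference between THBS1 and FN1 was -0.64 (-0.75 to -0.53), so THBS1 stood at 0.535 of the FN1 FPKM in siCINP and at 0.835 in siCtrl.

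FBN1, the microfibril protein fibrillin-1, had 1044 reads in siCINP and 978 in siCtrl (0.03, -0.10 to 0.15). TNC, tenascin-C, had 399 reads in siCINP and 395 in siCtrl (-0.05, -0.26 to 0.15) and fractional counts. The remaining 4 of this role were at the limit of detection: SPARC had 7 reads in siCINP and 1 in siCtrl, THBS2 had 17 in siCINP and 14 in siCtrl, LUM had 2 in each, and POSTN had no row. SPARC, LUM and POSTN are typical of stromal cells. For the mesenchymal genes no difference was detectable at this depth. CDH2, N-cadherin, had 362 reads in siCINP and 372 in siCtrl (-0.11, -0.32 to 0.11). TAGLN, the actin-binding protein transgelin, had 124 reads in siCINP and 100 in siCtrl (0.24, -0.15 to 0.64). ACTA2, smooth muscle actin, had 30 reads in siCINP and 28 in siCtrl (0.03, -0.76 to 0.83).

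Of the 4 collagen-modifying enzymes, LOXL2, PLOD1 and PLOD2 were lower in siCINP, each by less than 2-fold. LOXL2, a lysyl oxidase that crosslinks collagen, had 962 reads in siCINP, against 1358 in siCtrl, a 1.48-fold lower level (log2 ratio -0.57, -0.69 to -0.45). PLOD1, a lysyl hydroxylase of the collagen helix, had 1199 reads in siCINP and 1362 in siCtrl (-0.25, -0.37 to -0.14). PLOD2, the hydroxylase of telopeptide lysines, had 1852 reads in siCINP and 2024 in siCtrl (-0.20, -0.29 to -0.10). LOXL2 was lower relative to PLOD1 by a difference of -0.31 (-0.48 to -0.15). For PLOD2 and PLOD1 the difference was 0.06 with an interval that held 0 (-0.09 to 0.20), which does not show that they moved alike. LOX, the founding lysyl oxidase, had 13 reads in siCINP and 20 in siCtrl, with an interval of -1.82 to 0.39. The 4 genes summed to 4026 reads in siCINP and 4764 in siCtrl, a log2 ratio of -0.31 (-0.37 to -0.25).

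Some members overlap neighbours, and the strand setting was not given in the sources used here. Exons of ACTA2, COL4A2, LOXL2, MMP1, PLAU and TAGLN overlap those of listed genes on the other strand in GENCODE 29, and their values are uncertain to that extent. The largest overlap was between PLAU and C10orf55 with 771 bases, where C10orf55 had 85 reads in siCINP and 89 in siCtrl. ACTA2 shares 516 bases with ACTA2-AS1, which had 78 reads in siCINP and 84 in siCtrl, and TAGLN shares 442 bases with PCSK7, which had 547 reads in siCINP and 349 in siCtrl. Both neighbours had more reads than the member they overlap. COL4A2 and COL4A2-AS1 share 81 bases, and COL4A2-AS1 had 25 reads in siCINP and 24 in siCtrl. LOXL2-AS1 had 58 reads in siCINP and 88 in siCtrl.

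By summed FPKM, protease inhibitors and basement membrane collagens were the 2 highest roles in both libraries. Proteases with their receptor held 14.8% of the FPKM of all 36 genes in siCINP and 13.1% in siCtrl, and crosslinking and hydroxylation enzymes 13.9% in siCINP and 14.3% in siCtrl. Inhibitors summed to 236 FPKM in siCINP and 290 FPKM in siCtrl, of which TIMP1 was the main part. The log2 ratio of their summed reads was -0.61 (-0.68 to -0.55), and -1.09 without TIMP1, which leaves almost only TIMP2. Their summed FPKM, taken per length and without TMM, gave a smaller log2 ratio of -0.29. Summed reads give more weight to TIMP2, with a deposited length of 3670 bases, than to TIMP1, with 931. Basement membrane collagens had a log2 ratio of summed reads of -0.25 (-0.28 to -0.21), the type VI and XII collagens -0.44 (-0.54 to -0.35), and the glycoproteins -0.15 (-0.20 to -0.11), which was -0.35 without FN1. Total-count scaling gave -0.17 for basement membrane collagens, -0.08 for glycoproteins, -0.54 for inhibitors and -0.24 for crosslinking and hydroxylation enzymes, each outside its interval. It gave -0.37 for the type VI and XII collagens, inside the interval. Mesenchymal genes had 516 reads in siCINP and 500 in siCtrl (-0.02, -0.20 to 0.16). All 36 genes together held 0.2998% of the reads of the siCINP library and 0.3423% of those of the siCtrl library, before TMM scaling. After TMM scaling, the log2 ratio of their summed reads was -0.27 (-0.29 to -0.24). Total-count scaling, the basis of the 2 shares, puts that ratio 0.075 higher, outside the interval.

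**Figure D3:**
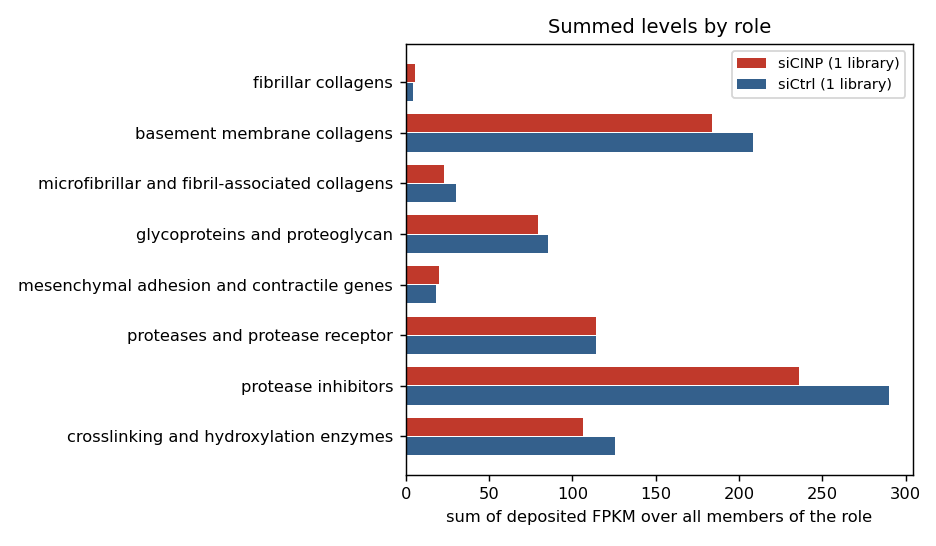
Sum of deposited FPKM (x axis, from 0) over all members of each role in the siCINP library (upper bar) and the siCtrl library (lower bar). Inhibitors reach 236 FPKM in siCINP and 290 in siCtrl, proteases 114 in each, and fibrillar collagens 5.69 in siCINP and 4.56 in siCtrl.

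The matrix pathway around these genes was counted over 158 other genes, of which 91 were compared. The 2-fold rule called 5 of the 91 higher in siCINP and 2 lower, where it called 1.69% of all compared genes higher and 1.41% lower. Intervals were above 0 for 14 (15.4%) and below 0 for 33 (36.3%), beside 18.6% above and 23.1% below over all compared genes. These background shares rise with depth. They were 20.9% above and 28.0% below among genes with 100 or more reads, and 26.1% above and 43.3% below with 1000 or more. The 91 genes and the single lists below were not matched for depth, and their counts are to be read against this range of shares. Their median log2 ratio was -0.14. The higher genes included TGFBI, COL17A1, LAMA3 and TPM4, and the 2 lower genes were VCAN and BSG.

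Other basement membrane genes had 6 of 12 intervals below 0 and 1 above. LAMA5, the laminin chain of mature epithelial basement membranes, had 7681 reads in siCINP, against 10116 in siCtrl (log2 ratio -0.47, -0.51 to -0.42), LAMB1 was at -0.45 and AGRN, the proteoglycan agrin, at -0.29. LAMA3, the laminin-332 chain, went the other way with 384 reads in siCINP, against 105 in siCtrl (1.803, 1.49 to 2.13), and a deposited length of 6169.81 bases in siCINP and 9060.85 in siCtrl. Of 22 other collagen chains with a row, 4 were compared and 1 differed. COL17A1, a transmembrane collagen of hemidesmosomes, had 168 reads in siCINP, against 37 in siCtrl (2.11, 1.59 to 2.67).

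Other glycoproteins and proteoglycans had 3 of 15 intervals above 0 and 4 below. VCAN, the large proteoglycan versican, had 1667 reads in siCINP, against 3728 in siCtrl, a 2.34-fold lower level (log2 ratio -1.23, -1.31 to -1.15), with no heptamer in its matched 3' UTR. TGFBI, a secreted adhesion protein, had 133 reads in siCINP, against 10 in siCtrl (3.67, 2.74 to 4.76). CCN1, a matricellular protein, was at 0.51 and GPC1, the proteoglycan glypican-1, at -0.40. Collagen processing genes had 10 of 24 intervals below 0 and 3 above. SERPINH1, the collagen chaperone HSP47, had 1178 reads in siCINP, against 1540 in siCtrl (-0.45, -0.57 to -0.34), ADAMTS3, a procollagen peptidase, was at -0.84, P3H4 at -0.59 with fractional counts, and TGM2, a transglutaminase that crosslinks matrix proteins, at 0.47.

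Other proteases and inhibitors had 8 of 19 intervals below 0 and 3 above. BSG, basigin or EMMPRIN, a membrane glycoprotein known to induce metalloproteinases, had 3472 reads in siCINP, against 7672 in siCtrl, a 2.32-fold lower level (log2 ratio -1.21, -1.27 to -1.15), and its 3' UTR held a heptamer, present in 7.56% of genes with a 3' UTR of similar length. SERPINE2, a secreted serine protease inhibitor, was at -0.78 and ADAMTS1, a proteoglycan-cleaving protease, at -0.79. Of 6 other metalloproteinases compared, MMP17 was at -0.94 and MMP16 at -0.41, with intervals that ended at -0.52 and -0.0047, and the other 4 intervals held 0.

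Other contractile genes had 3 of 11 intervals above 0 and 3 below. TPM4, a tropomyosin, had 4197 reads in siCINP, against 1239 in siCtrl (1.69, 1.60 to 1.78), with fractional counts. TPM2 was at 0.45, TPM1 at 0.09 and CNN2, a calponin, at -0.14. Of the 91 other genes, all with a matched 3' UTR, 17 held TGCAAGA or GCAAGAA, with a median log2 ratio of -0.14 and 7 intervals below 0 and 1 above, beside a median of -0.13 in the other 74, with 26 below and 13 above.

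**Figure D4:**
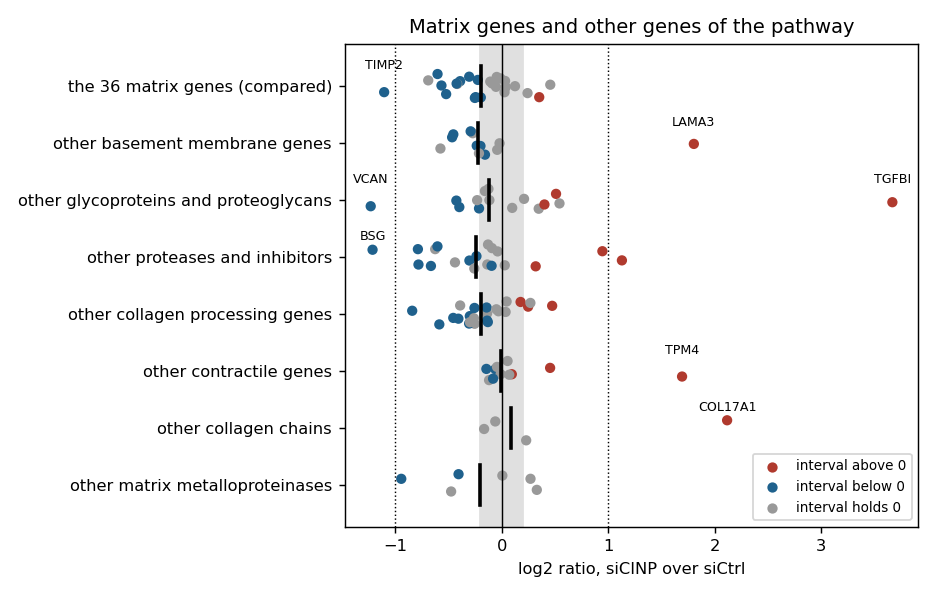
Log2 ratio of siCINP over siCtrl (x axis) for the compared genes among the 36 matrix genes and in each list of other pathway genes, with points spread vertically for legibility and coloured by whether the interval lies above 0, lies below 0 or holds 0, black bars at the median and a grey band for the interquartile range of all compared genes. Names mark TIMP2, VCAN and BSG beyond 2-fold on the lower side and LAMA3, TGFBI, TPM4 and COL17A1 on the higher side.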

How the data were processed

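Each library came as 1 table of genes. Its expected counts, deposited by the authors without scaling, estimate the reads of each gene. Its FPKM values were deposited by the authors, with gene lengths, per the file headers. Bowtie2, HISAT and hg19 appear in the submitters' processing notes with no version. The counter, its annotation and its strand setting were not given in the sources used here.

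Symbols came from a RefSeq table of GRCh38.p14, which matched 18971 of 19052 gene identifiers. Because hg19 differs, coordinates are printed only for sequences read from GENCODE 29 or RefSeq. Counts were rounded and scaled by TMM (edgeR 4.0.16, R 4.3.3; factors 1.03 for siCINP and 0.974 for siCtrl), and intervals came from scipy 1.17.1. Fractional counts are those more than 0.005 from a whole number. A gene without a row counts as 0, and a count of 0 stands at 3 reads in a ratio. Woolf's intervals also cover counting error only.

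All members are named. From each list of other genes, up to 4 are named, those whose interval excludes 0 and has its nearer end farthest from 0. 1 gene that this rule names is not reported here. Members, lists and heptamers were chosen with earlier results of these data known. Alternatives were 3 other scalings (total counts, upper quartile, DESeq2 1.42.0), FPKM with a pseudocount of 1 or 0.1, thinning, other minimums of reads, whole counts, other size rules, the mean, and role sums without their leading member. Calculations were tested on simulated data.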

Additional observations from a re-analysis of the deposited data

How the results depend on the processing

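TIMP2 stayed the 1 member past 2-fold under every alternative run except the 1.5-fold rule, which by its construction called 2 members lower. The count of members called higher was 0 in each of them, and 1 interval lay above 0 in the reported fit. The rule of an interval wholly beyond 2-fold was run with TMM only, where the TIMP2 interval ended at -1.0003. Members with an interval below 0 numbered 11 throughout, and those above 0 numbered 2 with total-count and with upper quartile scaling, where FN1 joined COL5A2. Total counts shift every ratio up by 0.075. The median of the compared members was -0.12 with total-count scaling, -0.12 with FPKM at a pseudocount of 1 or of 0.1, and -0.090 with a minimum of 10 reads, which adds members of few reads. The cause of the FPKM shift was not tested. Over all genes, the counts higher and lower were 62 and 98 with a minimum of 100 reads, 119 and 95 with whole counts only, 662 and 637 with the 1.5-fold rule, and 60 and 73 with an interval wholly beyond 2-fold. Of 150 alternative log2 ratios of 25 members, 137 stayed inside the gene's interval and 13 left it, with 0 reversals among genes whose interval excluded 0. The role sums gave 40 such values, 26 inside, 14 outside and 0 reversed. No paired analysis was possible because each group has 1 library. For the 11 members under 20 reads, differences were not detectable at this depth.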
